A study of Mus musculus with 2 samples.

Results

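The major urinary protein (Mup) genes described here were Mup1, Mup2, Mup3, Mup7, Mup10, Mup16, Mup18, Mup19, Mup20 and Mup21. They are 10 of 21 Mup genes, and of 37146 genes in all, found by their gene name in the deposited tables. Their levels were compared between 2 RNA-seq libraries from the liver of CD-1 mice, an outbred laboratory stock. The Control library came from mice given phosphate-buffered saline (PBS). The NP library came from mice given titanium dioxide (TiO2) nanoparticles by mouth at 50 mg per kg body weight per day, as a suspension dispersed by ultrasound for 30 min. The sources used here do not give the sex, the age, the duration of dosing or the number of mice behind each library. Levels were FPKM, fragment counts divided by transcript length and by library size, each with the deposited 95% interval of the Cufflinks estimate. The interval does not include variation from mouse to mouse, and with a single library on each side none of the differences was checked by replicates. The values describe this pair of libraries rather than the treatment.

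Major urinary proteins are small secreted lipocalins, barrel-shaped carriers of hydrophobic molecules. In mice the liver makes most of them, the blood carries them to the kidney, and they pass into urine, where they hold and slowly release volatile pheromones. Adult males make more than females, and in the male liver the genes depend on growth hormone pulses that act through STAT5B, together with androgens, thyroid hormone and glucocorticoids. The genes lie in a tandem cluster on chromosome 4, in which a central group of near-identical copies is flanked by more divergent ones.

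The coding sequences of the members showed which levels could be told apart by sequence and which could not. Mup1, Mup2, Mup7, Mup10, Mup16, Mup18 and Mup19 shared 98.53% to 99.82% of their coding bases in 21 pairwise comparisons, a difference of 1 to 8 bases. Mup20 matched those 7 at 90.11% to 91.39%, Mup21 at 83.7% to 84.98%, and Mup3 at 82.44% to 83.87%. Mup3 and Mup21 were closest to each other, at 94.77%. The first 80 coding bases, which encode the signal peptide and the start of the secreted protein, are shown because they hold both the near identity of the 7 and the divergence of the other 3. Capitals mark bases that differ from Mup7, or that the alignment with Mup7 inserted.
Mup7: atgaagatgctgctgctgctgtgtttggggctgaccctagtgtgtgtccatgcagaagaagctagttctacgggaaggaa
Mup2: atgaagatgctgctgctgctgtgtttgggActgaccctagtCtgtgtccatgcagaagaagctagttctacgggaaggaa
Mup1: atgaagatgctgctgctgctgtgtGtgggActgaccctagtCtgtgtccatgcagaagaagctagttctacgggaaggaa
Mup10: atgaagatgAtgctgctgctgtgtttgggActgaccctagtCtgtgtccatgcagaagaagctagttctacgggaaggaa
Mup16: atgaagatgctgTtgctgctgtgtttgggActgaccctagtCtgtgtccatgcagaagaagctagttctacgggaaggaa
Mup19: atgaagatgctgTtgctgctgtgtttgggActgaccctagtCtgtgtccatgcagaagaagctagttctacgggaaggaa
Mup18: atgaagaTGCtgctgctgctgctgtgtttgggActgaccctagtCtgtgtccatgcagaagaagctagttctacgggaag
Mup20: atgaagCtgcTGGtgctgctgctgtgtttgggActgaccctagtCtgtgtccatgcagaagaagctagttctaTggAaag
Mup21: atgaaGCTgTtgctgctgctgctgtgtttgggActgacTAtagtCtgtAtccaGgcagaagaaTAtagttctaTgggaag
Mup3: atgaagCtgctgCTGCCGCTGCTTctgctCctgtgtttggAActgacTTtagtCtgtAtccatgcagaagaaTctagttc
Over their whole coding length of 543 bases, the 6 central members other than Mup18 varied at 12 positions. Mup16 and Mup19 differed at a single coding base. The 61 bases around it are shown, with that base, coding base 129, in capitals, because these genes, nearly alike in sequence, had unlike ratios between the libraries.
Mup16: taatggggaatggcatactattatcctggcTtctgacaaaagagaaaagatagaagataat
Mup19: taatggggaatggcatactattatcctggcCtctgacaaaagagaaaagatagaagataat
Of all stretches of 50 bases in a transcript, the share also found in another Mup gene was 100% for Mup2 and Mup19, 94.8% for Mup1, 94.3% for Mup7, 90.7% for Mup16, 89.6% for Mup18 and 80.5% for Mup10. It was 19.1% for Mup21, 15.9% for Mup3 and 4.66% for Mup20. A short read from most of the first 7 transcripts could therefore have come from several genes, and the sources used here do not say how such reads were shared out. Levels of those 7 are accordingly uncertain one by one. Their sum removes exchange among the 7, but not exchange with Mup genes outside the member list. Mup9, which is no member, differed from Mup19 at 1 coding base and from Mup2 and Mup10 at 2. The sum over all 21 Mup genes, given further below, includes both sides of that exchange. Transcript sequences were those of GENCODE M21, in which 50 of the 56 Mup transcripts of the files were found, 3 of them under another symbol and left out.

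**Figure D1:**
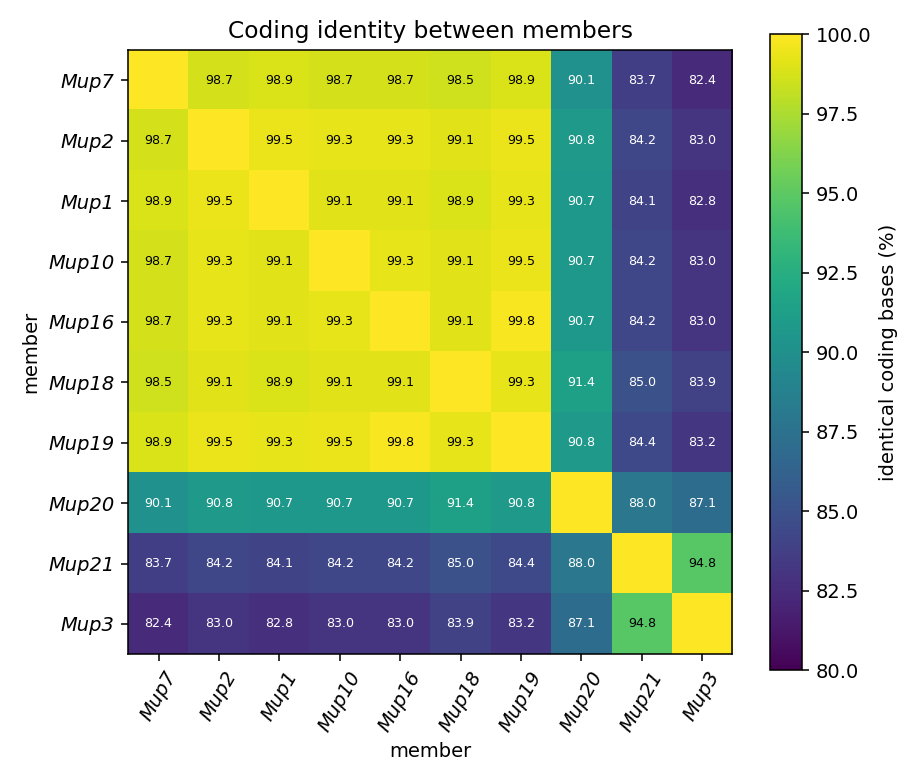
Percentage of identical coding bases between each pair of members, from pairwise alignment of the coding sequences. The 7 central genes form a block at 98.53% or more, Mup20 stands at 90.11% to 91.39% from it, and Mup3 and Mup21 stand furthest away.

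Promoter sequences from RefSeq (build GRCm38.p6) matched 7 members: Mup2, Mup3, Mup7, Mup10, Mup18, Mup19 and Mup21. A TATA box is the short element at which the general transcription machinery assembles close to a start site. Searched on both strands, the letters TATATAAG occurred in 6 of the 7 windows, all but that of Mup7, and in 1.01% of 32851 promoters of the same length. The windows were placed by RefSeq entries and were not matched to the starts of the transcripts measured here. A window without these letters, as for Mup7, therefore does not show that the gene lacks them. The 108 bases that end with this element are shown on the minus strand, on which the genes lie, with the element in capitals, since these upstream stretches separate the members more than the coding bases do.
Mup2, chr4:60139876-60139983: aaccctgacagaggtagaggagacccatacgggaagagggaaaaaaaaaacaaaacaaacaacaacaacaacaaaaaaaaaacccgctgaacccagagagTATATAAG
Mup10, chr4:60582178-60582285: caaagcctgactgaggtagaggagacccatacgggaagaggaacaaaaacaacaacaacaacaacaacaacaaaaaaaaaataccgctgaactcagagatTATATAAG
Mup18, chr4:61674115-61674222: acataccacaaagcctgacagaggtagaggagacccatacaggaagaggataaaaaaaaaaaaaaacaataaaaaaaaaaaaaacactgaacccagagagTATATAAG
Mup19, chr4:61782248-61782355: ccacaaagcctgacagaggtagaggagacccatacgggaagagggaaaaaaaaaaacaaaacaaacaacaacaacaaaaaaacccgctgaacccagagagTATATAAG
Mup3, chr4:62087321-62087428: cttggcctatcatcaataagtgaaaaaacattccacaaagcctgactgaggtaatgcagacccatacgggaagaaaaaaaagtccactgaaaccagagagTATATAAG
Mup21, chr4:62150842-62150949: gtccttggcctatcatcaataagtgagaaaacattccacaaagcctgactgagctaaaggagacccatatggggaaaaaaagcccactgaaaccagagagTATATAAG
Mup2, Mup10, Mup18 and Mup19 shared 75% to 88.6% of aligned bases in these stretches, and Mup3 and Mup21 shared 88.3%. Across those sets the identity was 53.6% to 58%. The letters TTCNNNGAA, a form bound by STAT5, occurred in 0 of the 7 windows and in 8.3% of all promoters. Beside that share, 0 of 7 does not set these windows apart, and sequence outside the windows was not searched. The letters TGTTCT, a short form of the glucocorticoid receptor element, occurred in the windows of Mup3 and Mup21 and in 19% of all promoters.

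Every member had a lower level in NP than in Control, as did 54.4% of the 10533 genes kept by a filter on low values (a mean of 1 FPKM or more). For all 10 members the NP interval lay wholly below the Control interval, against 9.53% of the kept genes. On the log2(FPKM + 1) scale 7 members were at least 1.5-fold lower in NP, against 5.33% of the kept genes, and 4 were at least 2-fold lower, against 1.88%. Among the 396 kept genes whose mean was 200 FPKM or more, a range closer to most members, 36.4% had a lower level in NP, 3.03% were at least 1.5-fold lower, 1.26% were at least 2-fold lower and 16.4% had an NP interval wholly below that of Control. The median log2 ratio of the members was -0.83, beside -0.03 for all kept genes. No member was excluded by the filter.

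**Figure D2:**
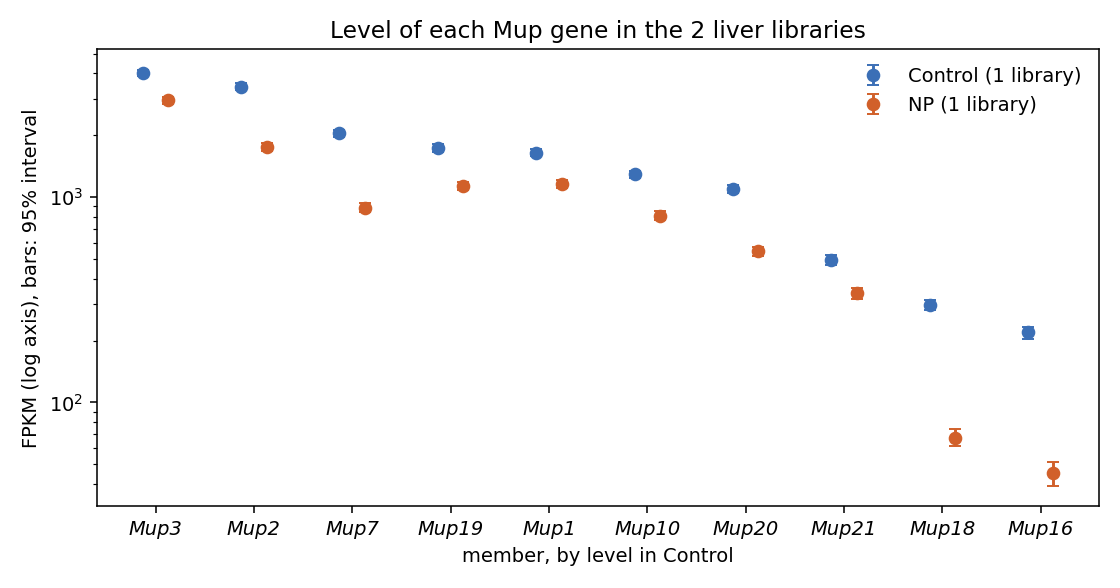
Level of each member in the Control and NP libraries in FPKM, on a log axis, with members ordered by their Control level and bars giving the 95% interval of each library. Every NP point lies below its Control point, with the widest gaps at Mup18 and Mup16.

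The summed level of the members was 16283 FPKM in Control (95% interval 16025 to 16541) and 9689 FPKM in NP (9522 to 9856). The sum was thus 40.5% lower in NP, a 1.68-fold difference with an interval of 1.64 to 1.72 from the estimates within each library. That interval does not allow for reads exchanged with Mup genes outside the member list. The members held 2.57% of all FPKM in Control and 1.53% in NP. The total over all genes was 634417 FPKM in Control and 633272 FPKM in NP. Division by library size tends to hold such totals close, so their closeness is no check on the members' sum. In bulk liver, fewer cells of a type and less RNA per cell cannot be told apart.

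Among the 7 near-identical central genes the sum was 10685 FPKM in Control and 5849 FPKM in NP, 1.83-fold lower. Mup2 had the highest level of this group, at 3453 FPKM (3304 to 3602) in Control and 1746 FPKM (1668 to 1824) in NP, 1.98-fold lower. Mup7 was at 2042 FPKM (1951 to 2133) in Control and 889 FPKM (847 to 932) in NP, 2.30-fold lower. These abundant copies were both near a 2-fold difference, and Mup7 moved from rank 37 to rank 88 among the kept genes.

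Mup19 had 1735 FPKM (1657 to 1813) in Control and 1129.6 FPKM (1077 to 1182) in NP, 1.54-fold lower. Mup1, which has been described as a secreted regulator of glucose metabolism in mice, was at 1648 FPKM (1578 to 1718) in Control and 1160.0 FPKM (1106.5 to 1214) in NP, 1.42-fold lower. The intervals of Mup19 and Mup1 overlapped each other in both libraries, so these genes could not be ordered. Mup10 was at 1289 FPKM (1232 to 1346) in Control and 812 FPKM (773 to 851) in NP, 1.59-fold lower. In NP the intervals of Mup10 and Mup7 overlapped, whereas in Control they were far apart.

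Mup16 and Mup18 were the lowest members in both libraries and had the largest ratios. Mup18 was at 298 FPKM (281 to 316) in Control and 67.5 FPKM (61.05 to 73.9) in NP, 4.42-fold lower. Mup16 was at 219 FPKM (205 to 234) in Control and 45.3 FPKM (39.35 to 51.3) in NP, 4.83-fold lower. Together they held 517 FPKM in Control and 113 FPKM in NP, a small part of the central copies. Among all kept genes 40 had a lower log2 ratio than Mup16 and 44 a lower one than Mup18. Mup19, which differs from Mup16 at the single coding base shown above, was 1.54-fold lower. Mup11, which is no member and differs from Mup18 at 1 coding base, was at 392 FPKM in Control and 99.1 FPKM in NP, 3.95-fold lower.

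The 3 divergent members, whose reads are the least exchangeable with the central copies, summed to 5598 FPKM in Control and 3840 FPKM in NP, 1.46-fold lower. Mup20 encodes darcin, the male urinary pheromone that attracts females, and was at 1093 FPKM (1041.5 to 1144) in Control and 544 FPKM (516 to 572) in NP, 2.01-fold lower. Its difference was close to that of Mup2, although only 4.66% of its 50-base stretches occur in another Mup gene. Mup3 was the most abundant member, at 4011 FPKM (3876 to 4145) in Control and 2956 FPKM (2848 to 3063) in NP. It was 1.36-fold lower, the smallest ratio of the 10, yet its difference of -1055 FPKM was the third in size among members after Mup2 and Mup7. Mup21 was at 495 FPKM (466 to 523.5) in Control and 339.8 FPKM (318.5 to 361) in NP, 1.46-fold lower.

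In Control the order of levels was Mup3, Mup2, Mup7, Mup19 and Mup1 level with each other, Mup10, Mup20, Mup21, Mup18 and Mup16. In NP the same ends held, with Mup3 and Mup2 first and Mup21, Mup18 and Mup16 last. Between them Mup7 stood below Mup1 and Mup19 in NP and above both in Control. The estimated makeup of the summed level therefore differed between the libraries. For the 7 central genes this order and these shares rest on single levels that shared reads leave uncertain. How far read assignment shaped them was not tested. Mup3 supplied 24.6% of the sum in Control and 30.5% in NP, Mup2 21.2% and 18.02%, and Mup7 12.5% and 9.18%. Mup16 supplied 1.35% in Control and 0.468% in NP.

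Several levels were sums over rows of the tables, which list each transcript and, for some genes, the whole gene span including introns. The span row of Mup1 had 124 FPKM in Control and that of Mup10 had 76.1 FPKM, and both were listed at 0 in NP. Without those rows the Mup1 transcript was at 1524.5 FPKM in Control, 1.31-fold higher than in NP, and the Mup10 transcript at 1213 FPKM in Control, 1.49-fold higher than in NP. The span rows of Mup16 and Mup18 were above 0 in both libraries, at 20.9 and 18.3 FPKM in Control and at 5.78 and 3.63 FPKM in NP. Over all 21 Mup genes 8 span rows were above 0 in Control and 3 in NP, and their sum was 431 FPKM in Control and 37.9 FPKM in NP. Among all genes, 13.3% of 5662 span rows above 0 in Control were listed at 0 in NP.

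The estimates for transcripts of the same gene also differed. Such transcripts overlap in position, so the split of reads between them is itself an estimate in each library. The Mup3 transcript of 938 nt was at 2584 FPKM in Control and 2258 FPKM in NP, 1.14-fold lower. The Mup3 transcript of 916 nt was at 1427 FPKM in Control and 698 FPKM in NP, 2.04-fold lower. Most of the difference of this gene was thus assigned to the shorter form. The Mup3 forms lie at 61744510 to 61748376 and at 61744510 to 61748323, so few reads could tell them apart. For Mup16 the transcript of 927 nt was 8.67-fold lower, from 127 FPKM in Control to 14.7 FPKM in NP, and that of 721 nt was 2.85-fold lower, from 70.9 FPKM to 24.9 FPKM.

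In the mm9 build, which the submitters' processing notes name, the members lie on chromosome 4 between 60079341 and 61811897, a span of 1.73 Mb. Mup7 (60079341 to 60083347) and Mup2 (60080259 to 60167161) come first and overlap in the files' coordinates. Mup16 (61176624 to 61180563) and Mup18 (61331211 to 61335170) lie towards the far end of the central group, and Mup20 (61711268 to 61715192), Mup3 (61744510 to 61748376) and Mup21 (61808966 to 61811897) form that end of the cluster. The ratios did not follow position in one direction, since Mup16 and Mup18, the lowest, lie on either side of Mup17 at a log2 ratio of -0.37. The 3 genes on each side of the cluster had log2 ratios from -0.49 at Gm12543 to 0.11 at Fkbp15, and all 6 had overlapping intervals. Snx30, on the near side, was at 2.01 FPKM in Control and 1.76 FPKM in NP. Slc31a1, a copper transporter on the far side, was at 51.4 FPKM in Control and 49.5 FPKM in NP.

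**Figure D3:**
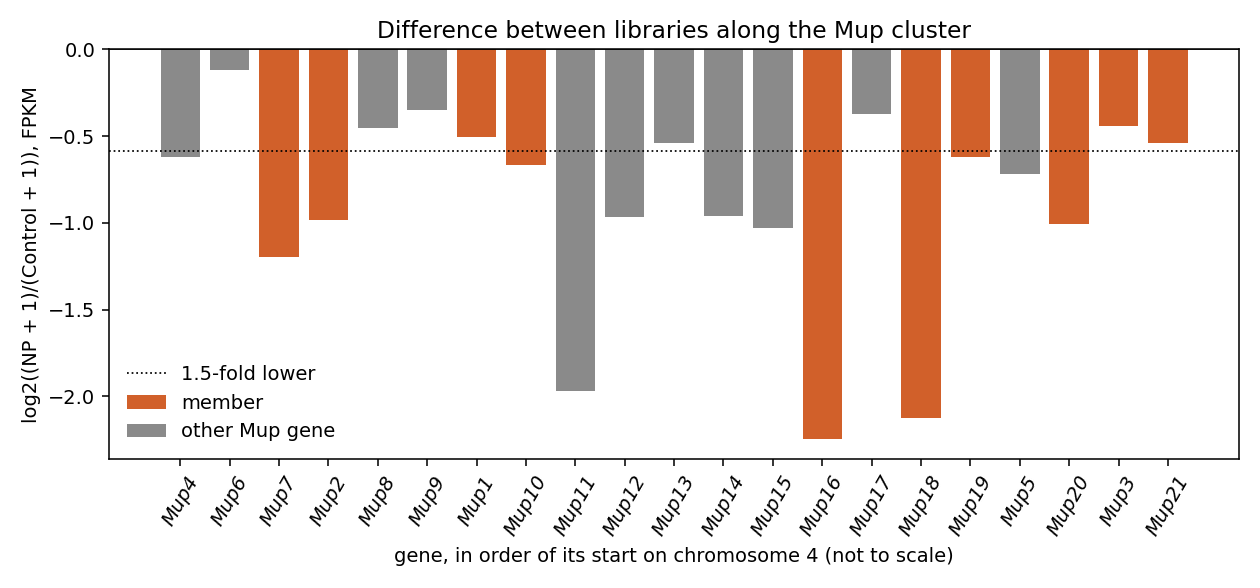
Log2 ratio of FPKM + 1, NP over Control, for the 21 Mup genes in their order on chromosome 4 (not to scale), with members coloured and the dotted line marking 1.5-fold lower. All 21 bars point down, from -0.12 at Mup6 to -2.25 at Mup16.

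The 11 Mup genes outside the member list were lower in NP too, as were 54.4% of all kept genes. At least 1.5-fold lower were 6 of the 11, against 5.33% of all kept genes. The summed level of the 11 was 26823 FPKM in Control and 19452 FPKM in NP, 1.38-fold lower. Mup9 and Mup17 held most of that sum. Mup9 was at 11914 FPKM in Control and 9365 FPKM in NP, and Mup17 at 8038 FPKM in Control and 6219 FPKM in NP. Without this abundant pair the other 9, which were Mup4, Mup5, Mup6, Mup8, Mup11, Mup12, Mup13, Mup14 and Mup15, were 1.78-fold lower, near the 1.68-fold of the members. Mup4, Mup5 and Mup6 were at 1.42 to 2.42 FPKM in Control and at 0.683 to 1.23 FPKM in NP, with overlapping intervals. Mup4 and Mup5, though at these low levels, were among the 6 counted as at least 1.5-fold lower. Over all 21 genes the sum was 43106 FPKM in Control and 29141 FPKM in NP, 1.48-fold lower.

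Among the 147 kept genes whose mean was 500 FPKM or more, the 9 lowest log2 ratios were those of Mup genes: Mup7, Mup15, Mup20, Mup2, Mup12, Mup14, Mup10, Mup19 and Mup13. The genes outside the family nearest to the summed members in ratio, measured over 2 libraries and 133 such genes, were Apoa4, Phyh, Serpina1e and mt-Nd6. Apoa4, an apolipoprotein, was at 805 FPKM in Control and 559 FPKM in NP, a log2 ratio of -0.53 beside -0.75 for the summed members. Phyh, a peroxisomal enzyme of phytanic acid breakdown, had a log2 ratio of -0.43, Serpina1e, a protease inhibitor, -0.36, and mt-Nd6, a mitochondrial subunit of complex I, -0.33. None of the 133 was at or below the ratio of the summed members. Alb, the serum albumin gene, was 1.42-fold higher in NP, at 21660 FPKM in Control and 30741 FPKM in NP.

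**Figure D4:**
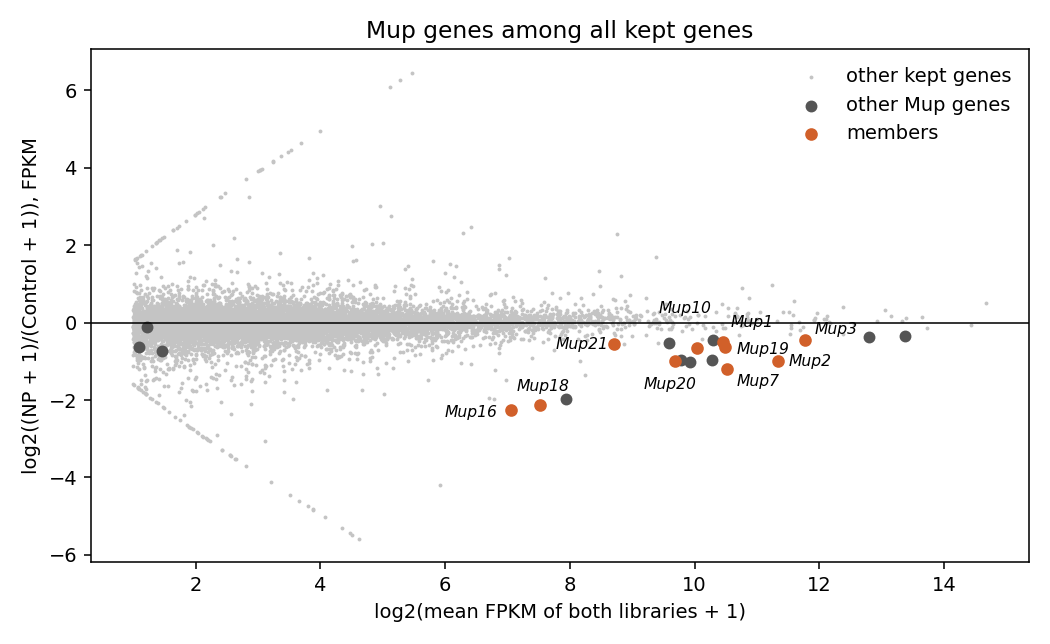
Log2 ratio of FPKM + 1, NP over Control, against the log2 mean level of both libraries for the 10533 kept genes, with members and the other Mup genes enlarged. Mup16 and Mup18 lie near -2, and the abundant Mup genes sit at the lower edge of the genes of similar level.

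The genes of related pathways were counted on the same scale. Over all kept genes 5.33% were at least 1.5-fold lower in NP and 3.6% at least 1.5-fold higher. Of 24 kept male-biased liver genes 8 were at least 1.5-fold lower in NP and 0 at least 1.5-fold higher, with a median log2 ratio of -0.29. Elovl3, a fatty acid elongase, was at 174 FPKM in Control and 43.6 FPKM in NP, 3.996-fold lower. Cyp7b1, an oxysterol hydroxylase, was at 236 FPKM in Control and 82.8 FPKM in NP, 2.85-fold lower. The ratios of both thus lay within the range of the members. At the other end of the kept genes were more cytochromes P450. Cyp2f2 was at 683 FPKM in Control and 795 FPKM in NP, and Cyp4a12a at 166.5 FPKM in Control and 186 FPKM in NP.

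Of 13 kept female-biased liver genes 1 was at least 1.5-fold lower and 3 were at least 1.5-fold higher, beside 5.33% and 3.6% of all kept genes. The median log2 ratio of the 13 was -0.34. Cyp2b9, a cytochrome P450, was at 0.369 FPKM in Control and 12.04 FPKM in NP. Abcd2, a peroxisomal fatty acid transporter, was at 2.06 FPKM in Control and 8.54 FPKM in NP. The lowest kept genes of the list were Cyp3a44, at 3.24 FPKM in Control and 1.12 FPKM in NP, and Cyp39a1, at 3.70 FPKM in Control and 2.19 FPKM in NP. The list thus held genes far apart in both directions. Its median was -0.01 when genes of low level were not filtered out.

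Of 17 kept genes of growth hormone signalling 2 were at least 1.5-fold lower and 0 higher, beside 5.33% and 3.6% of all kept genes. The median log2 ratio of the 17 was -0.04. Ghr, the growth hormone receptor, was at 169.8 FPKM in Control and 179.8 FPKM in NP, and Igf1, its secreted effector, at 364 FPKM in Control and 366 FPKM in NP. Stat5b, the transducer named above, was at 10.9 FPKM in Control and 10.6 FPKM in NP. The receptor, its effector and Stat5b thus had overlapping intervals in the libraries. Stat5a, a close relative of Stat5b, had 6.14 FPKM in Control and was listed at 0 in the NP table. Bcl6, a repressor that opposes STAT5, was at 8.51 FPKM in Control and 4.55 FPKM in NP. Stat5a and Bcl6 are the 2 counted as lower, and whether the 0 for Stat5a came from read assignment was not tested. The highest ratios among the kept genes of the list were those of Stat3, at 19.2 FPKM in Control and 27.4 FPKM in NP, and Igfals, which encodes a carrier of IGF1 in blood, at 30.3 FPKM in Control and 38.9 FPKM in NP.

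The median log2 ratio of 13 kept regulators of Mup genes or of liver transcription was 0.21. At least 1.5-fold lower were 0 of the 13 and higher was 1, beside 5.33% and 3.6% of all kept genes. The higher regulator was Trim24, a co-regulator of nuclear receptors, at 5.66 FPKM in Control and 9.10 FPKM in NP. Cebpb, a leucine zipper factor, was at 51.5 FPKM in Control and 77.7 FPKM in NP. Its relative Cebpa had the lowest ratio of the kept regulators, at 153 FPKM in Control and 118 FPKM in NP, followed by Nr3c1, the glucocorticoid receptor, at 13.2 FPKM in Control and 10.9 FPKM in NP. Zhx2, a homeobox factor that controls Mup expression in mouse liver, was at 2.90 FPKM in Control and 3.78 FPKM in NP.

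Other lipocalins and other secreted liver proteins had median ratios above 0. Of 8 kept lipocalins 0 were at least 1.5-fold lower and 3 were higher, beside 5.33% and 3.6% of all kept genes. The median log2 ratio of the 8 was 0.27. Lcn2, an iron-trapping lipocalin of the acute phase, was at 1.31 FPKM in Control and 4.23 FPKM in NP, and Orm1, an acute-phase glycoprotein, at 326 FPKM in Control and 498.5 FPKM in NP. The lowest ratios among the kept lipocalins were those of Lcn13, at 6.21 FPKM in Control and 4.40 FPKM in NP, and C8g, a complement subunit, at 303 FPKM in Control and 321 FPKM in NP. Of 30 abundant secreted proteins 0 were at least 1.5-fold lower and 3 were higher, beside the same shares of all kept genes. The median log2 ratio of the 30 was 0.11. Itih4 and Itih3 were highest, at 378 and 225 FPKM in Control and 622 and 352 FPKM in NP. Apoa4 and Serpina3k were lowest, the latter at 3253 FPKM in Control and 2650.2 FPKM in NP.

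**Figure D5:**
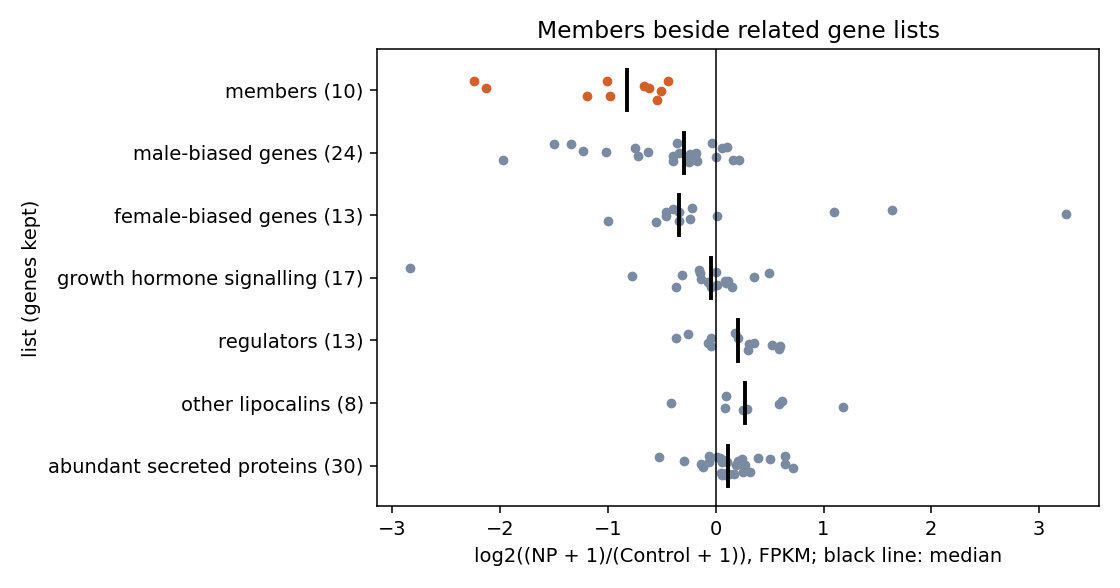
Log2 ratio of FPKM + 1, NP over Control, for the members and the kept genes of 6 lists, 1 point for each gene, with a black line at each median. The members have the lowest median, -0.83, and all lie below 0, whereas the lists of regulators, other lipocalins and abundant secreted proteins have medians above 0.

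The labelled tissue was checked against markers. All 6 hepatocyte markers were kept, with a summed level of 42715 FPKM in Control and 53280 FPKM in NP. The largest part was Alb, at 21660 FPKM in Control and 30741 FPKM in NP. Of the 6, 1, Cyp2e1, had an NP interval wholly below that of Control and 4 had one wholly above it. Over all 10533 kept genes 1004 lay wholly below and 814 wholly above. Mup genes are also expressed in lacrimal and salivary glands, and of 5 gland markers Smr3a, Pip and Prol1 were at 0 in both libraries, Bhlha15 was under 1 FPKM, and Amy1, which the liver also expresses, was at 191 FPKM in Control and 217 FPKM in NP. Summed endothelial markers, of which 4 of 4 were kept, were at 59.4 FPKM in Control and 43.1 FPKM in NP. Summed Kupffer cell markers, 4 of 4 kept, were at 25.2 and 11.9 FPKM, stellate cell markers, 2 of 4 kept, at 16.8 and 13.75 FPKM, and bile duct markers, 1 of 4 kept, at 2.53 and 2.75 FPKM. At least 1.5-fold lower in NP were 0 of the 4 endothelial, 1 of the 4 Kupffer cell and 0 of the 2 kept stellate cell markers. Over all kept genes this share was 5.33%. Each of these lists had 1 marker with an NP interval wholly below that of Control, beside 9.53% of all kept genes. Clec4g supplied most of the endothelial sum, at 44.6 FPKM in Control and 30.6 FPKM in NP, Clec4f most of the Kupffer cell sum, at 18.4 and 7.63 FPKM, and Reln most of the stellate cell sum, at 13.8 and 12.02 FPKM. The part of these cell types in the result was not tested. Median read coverage per FPKM, a measure of relative depth, was 2.29 in Control and 2.92 in NP. The NP library was therefore the deeper of the pair, and the members' 95% intervals reached 3.35% to 6.6% to either side in Control and 3.63% to 13.2% in NP.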

How the data were processed

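RNA was measured in 2 liver libraries, 1 Control and 1 NP. Per the labels' protocols, Trizol-extracted total RNA entered an Illumina TruSeq RNA kit. The submitters' processing notes name TopHat2 2.1.0, Cufflinks 2.2.1.0 and build mm9; the sources used here do not give settings, strand or read length. The deposited tables give FPKM per row with a 95% interval and status, and read coverage, a signal not scaled to library size, per the file headers. Row lengths are in the same deposited tables.

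For each gene identifier the FPKM of its rows were added, and interval widths were combined in quadrature without covariance. A row at 0 was given no width. The filter required a mean of 1 FPKM or more, status OK for every row, a transcript of 300 nt or more and no small RNA name. Ratios, log2((NP + 1)/(Control + 1)), understate the differences of genes at low levels. Folds given for single genes and sums are of FPKM itself. With 1 library in each group no test was possible, and fixed sizes of 1.5-fold and 2-fold were used. As a check of the arithmetic, fixed folds were applied to the Control values of randomly chosen genes and were recovered. That check had no noise and no reads shared between genes, so it does not bear on the accuracy of the levels.

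The members and the gene lists were chosen with earlier results of these data known. Besides all members, the genes named were the 2 highest and 2 lowest ratios of each list, the 4 abundant genes outside the family nearest to the summed members in ratio, and the other Mup genes above 1 FPKM. Ghr, Igf1, Stat5b, Zhx2, Alb, the marker genes and the neighbouring genes were named for their known role or place. Alternatives covered pseudocount, filter, scaling, rows summed, genes summed and measure. Python 3.11.15, pandas 2.3.3, numpy 2.4.6, scipy 1.17.1, matplotlib 3.10.9 and Biopython 1.88 were used.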

Additional observations from a re-analysis of the deposited data

How the results depend on the processing

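The direction of the summed level was the same under every alternative run. The ratio of the sums, NP over Control, was 0.595. It was 0.676 with all 21 Mup genes, 0.549 without Mup3 and 0.570 with FPKM times row length. At 2-fold in place of 1.5-fold the count of lower members was 4, and with transcript rows alone it was 6, because Mup10 then lay at 1.49-fold. The share of the members was 1.501% in Control and 0.841% in NP by FPKM times length, and 1.57% in NP with transcript rows alone. The Mup1 ratio was 0.761 with transcript rows alone. Without the filter 2 female-biased genes were lower and 5 higher, with a median of -0.01 in place of -0.34, and 2 growth hormone signalling genes were higher. With the median ratio set to 1, 2 regulators were higher, and with equal totals outside the members 1 endothelial marker was lower. The cause of these shifts was not tested. The scalings moved log2 ratios by 0.029, 0.027 and -0.013.

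The 95% interval of Mup16 in NP, the widest of the members relative to its level, reached 13.2% to either side. No paired analysis was possible because each group has 1 library, and no library was left out for the same reason.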

Other observations

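Of 21 Mup pseudogenes, copies that carry no intact protein, 17 had a ratio below 0 and 7 were at least 1.5-fold lower in NP. An NP interval wholly below that of Control was found for 3, of which Mup-ps4 was at only 0.746 FPKM in Control and 0.0903 FPKM in NP. Over all kept genes these shares were 54.4%, 5.33% and 9.53%, but most of the pseudogenes did not pass that filter. The summed level of the 21 pseudogenes was 401 FPKM (309.7 to 492) in Control and 85.4 FPKM (0 to 431) in NP, with overlapping intervals. Most of that NP width came from Mup-ps5, whose longest transcript is 99 nt, at 13.3 FPKM (0 to 359) in NP. Mup-ps17 was at 183.5 FPKM (149 to 218) in Control and 25.4 FPKM (11.1 to 39.8) in NP, and Mup-ps19 at 165 FPKM (149.9 to 181) in Control and 41.7 FPKM (34.7 to 48.7) in NP. These 2 held most of the sum, and they were 7.21-fold and 3.96-fold lower in NP. The longest transcript of Mup-ps17 is 218 nt, below the length filter, and 3 of the 21 were kept.

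Within the cluster the gene Gm12909, close to Mup3, was at 30.6 FPKM (25.4 to 35.9) in Control and 15.5 FPKM (11.8 to 19.1) in NP. Gm13773 was at 0.899 FPKM (0.75 to 1.05) in Control and 2.65 FPKM (1.07 to 4.24) in NP. Outside the cluster Gm12543 was at 28.7 FPKM in Control and 20.2 FPKM in NP, with overlapping intervals.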
